A study of Mus musculus with 16 samples.

Results

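The *Serpina3* paralogs described here are 7 genes of a cluster on mouse chromosome 12, *Serpina3e-ps*, *Serpina3f*, *Serpina3g*, *Serpina3h*, *Serpina3i*, *Serpina3m* and *Serpina3n*, followed through pancreatic islets exposed to the cytokine IL-1β. They were taken by symbol from a table of 52636 genes, and they had been picked because IL-1β raised members of the cluster in these islets, so their rise against control islets is given as a description and is not tested. In the presence of IL-1β, *Serpina3e-ps*, *Serpina3f*, *Serpina3i* and *Serpina3n* went from at most 10 reads per library in control islets to between 218 and 517. *Serpina3g* and *Serpina3h* went from 0 reads to between 4 and 28. *Serpina3m* had 0 reads in each of the 16 libraries, so the name of the group, paralogs induced by IL-1β, goes against the data for this gene.

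RNA was sequenced from islets of male C57BL/6JRj mice, 12 weeks old (the methods of the study give C57BL/6NRj), cultured for 10 days in medium with human serum. The islets were left unexposed (control), or received 50 pg/mL recombinant mouse IL-1β, 0.2 mM sodium butyrate, or IL-1β plus butyrate, with 4 libraries for each of the 4 conditions and no genetic change in any of them. A library holds the RNA of 500 islets from a pool of mice, and the study describes 4 independent experiments, so replicates stand for experiments rather than for animals. The labels do not say whether a replicate number marks the same experiment in each condition. Islets hold beta, alpha and delta cells with resident macrophages, endothelial cells and stroma, and in such bulk RNA fewer cells of a type and less RNA per cell cannot be told apart. Libraries held between 18635943 and 25955943 reads counted in genes (median 22184715), and the defining genes of beta, alpha and delta cells (*Ins2*, *Gcg*, *Sst*) were read in each.

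Serpins are proteins that trap a protease by offering it a loop that resembles a substrate, after which the protease is held in a complex. Clade A serpins are mostly secreted plasma proteins, many of them acute phase proteins that the liver makes during inflammation under the control of NF-κB, STAT3 and C/EBP factors. The human gene *SERPINA3* (alpha-1-antichymotrypsin) corresponds in the mouse to a cluster of duplicated genes whose reactive loops differ. *Serpina3n* is a secreted inhibitor of granzyme B and other serine proteases, and *Serpina3g* (Spi2A) stays inside the cell, where it inhibits lysosomal cathepsins. The annotation used here (GENCODE M21) calls *Serpina3e-ps* an unprocessed pseudogene and *Serpina3h* a transcribed unprocessed pseudogene, and the other 5 protein coding.

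On the GRCm38 assembly the cluster holds 14 *Serpina3* genes. In their order along chromosome 12 the members are *Serpina3e-ps* (ENSMUSG00000091553, 104189517 to 104192926, minus strand), *Serpina3f* (ENSMUSG00000066363, 104214544 to 104221129), *Serpina3g* (ENSMUSG00000041481, 104236245 to 104241939), *Serpina3h* (ENSMUSG00000041449, 104247905 to 104253669), *Serpina3i* (ENSMUSG00000079014, 104263122 to 104269372), *Serpina3m* (ENSMUSG00000079012, 104338486 to 104394257) and *Serpina3n* (ENSMUSG00000021091, 104406729 to 104414329), the last 6 on the plus strand. The longest transcripts of any 2 members were 81.8% to 94.3% identical over the aligned bases. The closest pairs were *Serpina3h* with *Serpina3i* (94.3%) and with *Serpina3g* (94.2%). Reads from such copies can be hard to place, and of the stretches of 50 bases in each gene's transcripts the share found also in another gene was 21.6% for *Serpina3e-ps*, 10.6% for *Serpina3f*, 15.5% for *Serpina3g*, 21.9% for *Serpina3h*, 15.9% for *Serpina3i*, 19.1% for *Serpina3m* and 6.90% for *Serpina3n*. How reads with several places were counted is not given in the sources used here. Of 894 genes whose every transcript is identical to one of a gene elsewhere, 821 had 0 counts in every library, and the highest total among them was 63. Reads that fit several genes equally well were thus hardly counted, so the levels leave out the shared stretches, and the split among *Serpina3e-ps*, *Serpina3g*, *Serpina3h* and *Serpina3i* is the least certain.

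The 250 bases before the start of the RefSeq transcript (GRCm38.p6, chromosome 12) are shown for the 4 members that have a RefSeq promoter window, since the paralogs moved together with IL-1β, and for their neighbour *Serpina3c*, which did not. NF-κB is the main transcription factor downstream of the IL-1 receptor, and STAT3 is that of the IL-6 family receptors. Capitals mark matches to GGGNNTTTCC, a form of the NF-κB motif, and to TTCNNNGAA, the STAT motif, searched on both strands. The windows are chr12:104262872-104263121 for *Serpina3i*, chr12:104235897-104236146 for *Serpina3g*, chr12:104214294-104214543 for *Serpina3f* and chr12:104406458-104406707 for *Serpina3n*, on the plus strand, and chr12:104153873-104154122 for *Serpina3c*, on the minus strand.
Serpina3i: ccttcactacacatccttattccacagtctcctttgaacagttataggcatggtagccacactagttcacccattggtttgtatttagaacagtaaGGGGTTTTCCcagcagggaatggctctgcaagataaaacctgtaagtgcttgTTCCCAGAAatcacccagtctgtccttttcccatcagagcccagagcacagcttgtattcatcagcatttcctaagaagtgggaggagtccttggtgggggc
Serpina3g: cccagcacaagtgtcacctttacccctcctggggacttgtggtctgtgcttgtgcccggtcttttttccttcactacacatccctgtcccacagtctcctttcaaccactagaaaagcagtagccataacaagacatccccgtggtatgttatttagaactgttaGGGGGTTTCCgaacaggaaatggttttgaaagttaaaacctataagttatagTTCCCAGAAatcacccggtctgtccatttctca
Serpina3f: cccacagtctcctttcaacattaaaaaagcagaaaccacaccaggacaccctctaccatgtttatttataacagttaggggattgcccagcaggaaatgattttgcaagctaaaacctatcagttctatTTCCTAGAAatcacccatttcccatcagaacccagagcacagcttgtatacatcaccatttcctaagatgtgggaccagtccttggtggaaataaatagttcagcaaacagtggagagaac
Serpina3n: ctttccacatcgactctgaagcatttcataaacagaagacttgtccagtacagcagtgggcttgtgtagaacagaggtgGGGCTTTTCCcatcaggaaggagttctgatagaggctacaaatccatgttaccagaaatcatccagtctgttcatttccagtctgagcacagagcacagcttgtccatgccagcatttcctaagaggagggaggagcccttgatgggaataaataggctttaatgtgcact
Serpina3c: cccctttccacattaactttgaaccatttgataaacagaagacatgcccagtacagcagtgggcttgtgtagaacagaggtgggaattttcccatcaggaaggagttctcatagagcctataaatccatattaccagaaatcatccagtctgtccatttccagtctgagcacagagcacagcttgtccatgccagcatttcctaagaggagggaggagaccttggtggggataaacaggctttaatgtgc

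Of the 32851 RefSeq promoter windows of this length, 1.41% held GGGNNTTTCC and 7.02% held TTCNNNGAA. In *Serpina3i* the NF-κB match GGGGTTTTCC began 154 bases before the start and the STAT match TTCCCAGAA 102 bases before it. *Serpina3g* held GGGGGTTTCC and the same STAT match closer to its start, at 85 and 33 bases. In *Serpina3f* the letters that line up with the NF-κB match of *Serpina3i* are ggggattgcc, of which 8 of 10 are the same. They do not match GGGNNTTTCC but do match GGGNNNNNCC, a looser form that 45.8% of all windows held. The STAT match TTCCTAGAA of *Serpina3f* lay 121 bases before the start. *Serpina3f* also held 2 matches to TTGCNNAA, a C/EBP motif found in 9.56% of windows, 150 and 22 bases before the start on the other strand, and none of the other 4 windows shown held one. RefSeq gives *Serpina3f* a second start at 104214633, whose window has the same STAT and C/EBP matches, at 210, 239 and 111 bases, but neither NF-κB form. TATAAA, the TATA box, was searched as well (12.4% of windows), with 1 match each in *Serpina3f*, 186 bases before the start on the other strand, and *Serpina3c*, 132 bases before it. *Serpina3n* held GGGCTTTTCC, 171 bases before the start. Where *Serpina3i*, *Serpina3g* and *Serpina3f* have the STAT match, both *Serpina3n* and *Serpina3c* had ttaccagaa. In *Serpina3c* the letters that line up with the NF-κB match of *Serpina3n* are ggaattttcc, 8 of 10 letters being the same, although the windows of these 2 genes were 92.7% identical over 247 aligned bases. The window of *Serpina3j*, a gene of the cluster that is not a member, is not shown and held 0 matches to each of these motifs. Its reads also rose with IL-1β, from at most 1 in a control library to between 13 and 22. Matches describe the letters only, and their part in the levels was not tested.

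IL-1β raised the summed level of the members from 0.275 ± 0.164 CPM (read counts relative to the library total, scaled by TMM; SD, n = 4) in control islets to 62.0 ± 4.07 CPM. The sums with IL-1β lay between 56.5 and 65.97 CPM, and those of control islets between 0.14 and 0.514 CPM. With IL-1β plus butyrate the sum was 61.1 ± 8.62 CPM (55.7 to 73.9), and with butyrate alone 0.596 ± 0.675 CPM (0.209 to 1.61). The 2 conditions with IL-1β overlapped in this sum, as did the 2 without it.

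**Figure D1:**
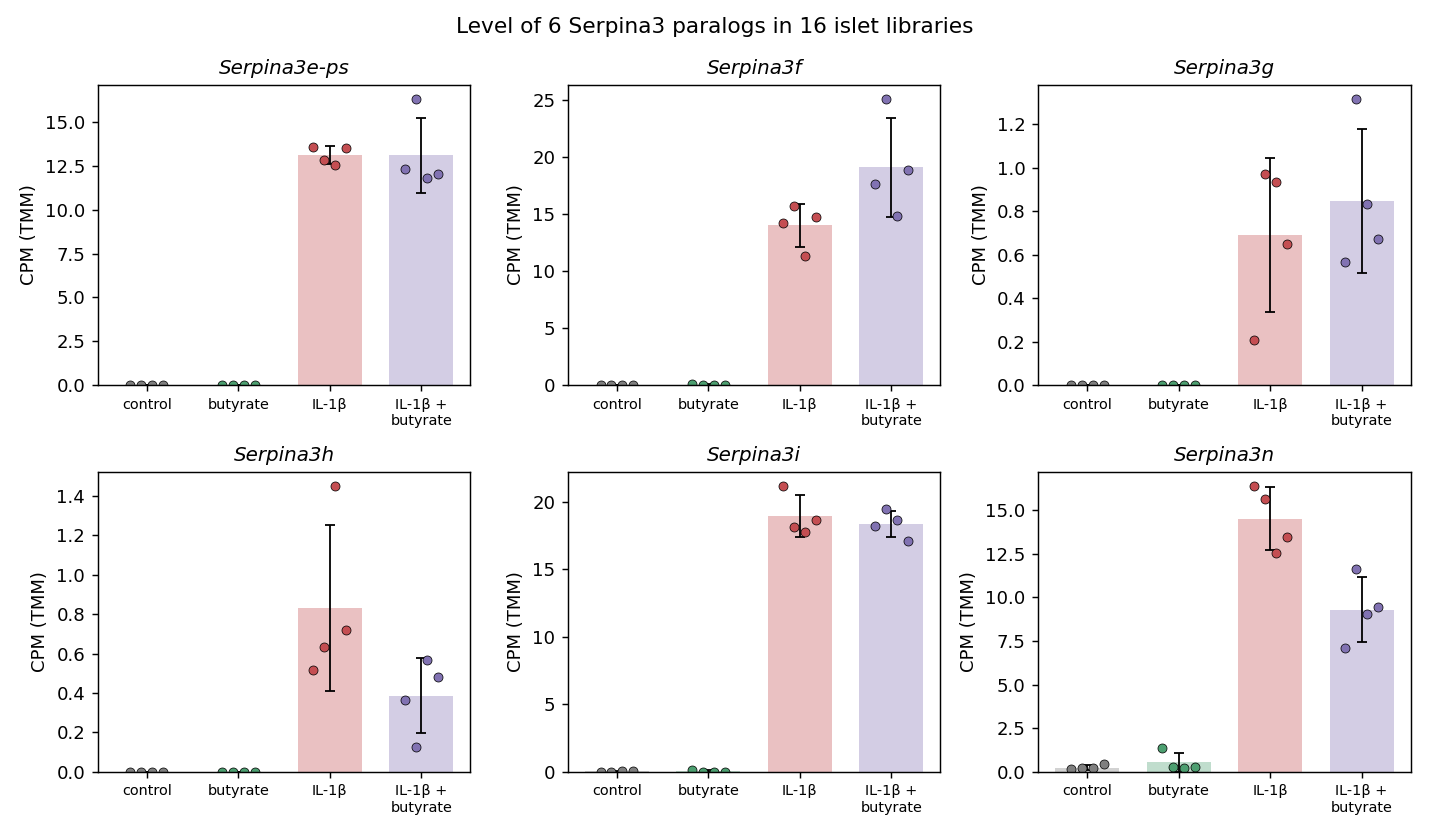
Level of the 6 paralogs with any reads, in CPM (vertical axis, a scale of its own in each panel, starting at 0), in the 4 conditions; points are libraries, bars are means and error bars the SD over 4 libraries. The libraries without IL-1β lie at or near 0 in every panel, *Serpina3i* reaches 18.9 CPM with IL-1β, and *Serpina3f* is higher and *Serpina3n* lower with IL-1β plus butyrate than with IL-1β.

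*Serpina3n*, the granzyme B inhibitor, was the member with the clearest level in control islets, with 3, 5, 4 and 10 reads in replicates 1 to 4. With IL-1β the same gene had 317, 321, 242 and 373 reads, so the groups lay far apart. In CPM this was 0.242 ± 0.127 against 14.5 ± 1.80, a ratio of 59.96, and the fitted log2 difference was 5.85 (SE 0.35, 95% interval 5.11 to 6.60).

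*Serpina3i* had the most reads of the members over all libraries. Control replicates had 0, 0, 1 and 1 reads, and IL-1β replicates 409, 372, 342 and 517. Its mean level with IL-1β was 18.9 ± 1.54 CPM, and the ratio of pooled reads was 847, with a 95% interval for counting error alone of 234 to 6997. *Serpina3f* had 0, 0, 0 and 1 reads in control islets and 274, 322, 218 and 409 with IL-1β, or 13.98 ± 1.89 CPM. The ratio for *Serpina3f*, 1263, rests on that lone control read, and its counting interval ran from 226 to 49915.

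The pseudogene *Serpina3e-ps* had 0 reads in the 4 control libraries and 262, 264, 242 and 374 with IL-1β. At 13.1 ± 0.492 CPM its libraries with IL-1β were the closest together of the 6 genes relative to the mean, and it was at least 91.5-fold higher than in control islets, taking 3 reads per library as the limit that 0 reads allow. Such limits and intervals cover counting error only.

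*Serpina3g*, the cathepsin inhibitor, had 0 reads in control islets and 4, 20, 18 and 18 with IL-1β. At 0.691 ± 0.353 CPM this was at least 4.82-fold higher, with replicate 1 well under the other replicates. The pseudogene *Serpina3h* had 0 reads in control islets and 10, 13, 28 and 20 with IL-1β, which gave 0.831 ± 0.422 CPM and an increase of at least 5.80-fold. In both genes the groups did not overlap, but a library rests on few reads. Of all genes tested, 14.1% were higher in each IL-1β library than in each control library, and 11.2% were called higher (17.8% in either direction) by edgeR's quasi-likelihood test at an adjusted p under 0.01. The members were chosen by this comparison, and nothing is read from their count.

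The islets that received butyrate offer the same cytokine contrast in 8 libraries that did not serve to choose the paralogs, since IL-1β plus butyrate can be compared with butyrate alone. The members were still chosen with earlier results of these data known. The paralogs tested passed the filter on low counts only through the libraries with IL-1β, so their adjusted p in this contrast are given as a description. *Serpina3i* had 3, 0, 0 and 0 reads with butyrate and 448, 458, 426 and 355 with IL-1β plus butyrate. The ratio of pooled reads was 520 (counting interval 177 to 2522), with an adjusted p of 2.04e-20 in edgeR's quasi-likelihood test. *Serpina3f* had 2, 0, 0 and 0 reads against 434, 590, 338 and 392, a ratio of 810 (counting interval 224 to 6696, adjusted p 3.97e-13, edgeR). *Serpina3e-ps* had 0 reads against 303, 384, 269 and 250 and was at least 83.6-fold higher (adjusted p 3.68e-16, edgeR).

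*Serpina3n* again had reads in both groups, 27, 6, 4 and 7 with butyrate against 175, 274, 206 and 196 with IL-1β plus butyrate. It rose from 0.533 ± 0.550 to 9.30 ± 1.86 CPM, 17.4-fold, with a log2 difference of 4.14 (SE 0.33, adjusted p 1.03e-07, edgeR). Butyrate replicate 1 stood above the other 3 butyrate replicates but far under the libraries with IL-1β, and without it the log2 difference was 5.12 (SE 0.26, adjusted p 7.05e-14, edgeR). *Serpina3g* had 0 reads with butyrate and 14, 31, 19 and 14 with IL-1β plus butyrate, and was at least 5.41-fold higher (adjusted p 8.94e-06, edgeR). *Serpina3h* had 0 reads against 9, 3, 13 and 10 and was at least 2.46-fold higher (adjusted p 0.000356, edgeR). The 6 paralogs tested were thus called higher, where 9.92% of the 18587 genes tested were called higher and 14.8% in either direction. Each of these 6, *Serpina3n* included, passed the filter on low counts only through the libraries with IL-1β. Their adjusted p and this count are therefore a description, and *Serpina3m* was not tested.

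Levels of different genes can be compared once they are divided by exon length. With IL-1β, *Serpina3e-ps* was the highest at 10.7 ± 0.401 CPM per kb of exon, followed by *Serpina3i* at 8.50 ± 0.692, *Serpina3n* at 7.03 ± 0.874 and *Serpina3f* at 6.10 ± 0.825 CPM per kb. The libraries of *Serpina3n* and *Serpina3f* overlapped, and the other neighbours in this order did not. *Serpina3h* (0.579), *Serpina3j* (0.403) and *Serpina3g* (0.328 CPM per kb) followed at lower levels and overlapped in turn. With IL-1β plus butyrate, *Serpina3e-ps* was at 10.7 ± 1.74 CPM per kb, *Serpina3f* at 8.33 ± 1.89 and *Serpina3i* at 8.25 ± 0.441, each overlapping the next. *Serpina3n* came below all libraries of these 3 genes at 4.51 ± 0.899 CPM per kb. When only stretches of 50 bases found in no other gene were counted as length, *Serpina3i* passed *Serpina3f* in the libraries with IL-1β plus butyrate (9.82 against 9.32 CPM per kb) and the rest of the order stood.

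**Figure D2:**
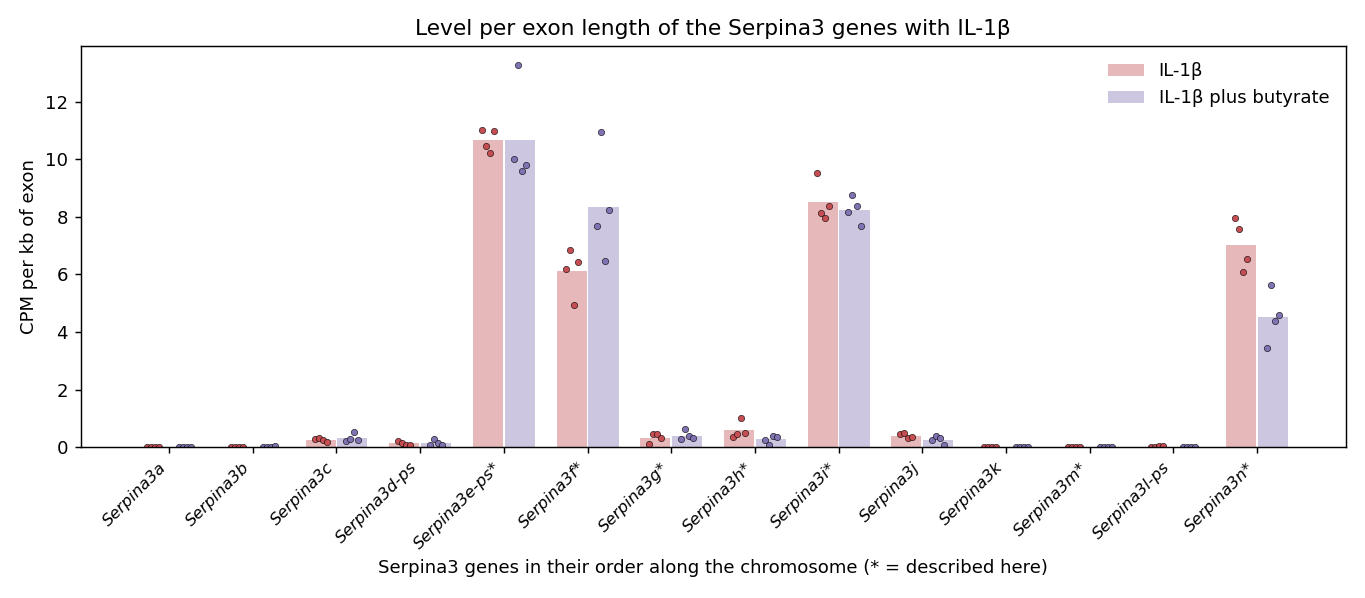
Level per exon length (CPM per kb, vertical axis) of the 14 *Serpina3* genes in their order along the chromosome, in the 4 IL-1β libraries and the 4 libraries of IL-1β plus butyrate; bars are means, points are libraries, and asterisks mark the 7 members. *Serpina3e-ps*, *Serpina3f*, *Serpina3i* and *Serpina3n* stand between 4.51 and 10.7 CPM per kb on average, and the other genes stand under 1 CPM per kb.

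The 7 other *Serpina3* genes of the cluster had few reads. *Serpina3j*, which lies between *Serpina3i* and *Serpina3m* and is not a member, had at most 1 read in a control library and 13 to 22 in an IL-1β library, and 1 read in each butyrate library against 3 to 20 with IL-1β plus butyrate. It too passed the filter on low counts only through the libraries with IL-1β. *Serpina3c*, whose promoter window is close to that of *Serpina3n*, had 12 to 14 reads in control islets, 11 to 14 with IL-1β, 8 to 18 with butyrate and 11 to 26 with IL-1β plus butyrate, and these groups overlapped. Its log2 difference between IL-1β plus butyrate and butyrate was 0.24 (95% interval from -0.41, SE 0.32, adjusted p 0.673, edgeR). *Serpina3a*, *Serpina3b*, *Serpina3d-ps*, *Serpina3k* and *Serpina3l-ps* had at most 8 reads in any library.

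Whether butyrate altered the IL-1β levels was asked by comparing IL-1β plus butyrate with IL-1β. This comparison shares its IL-1β libraries with the choice of the members. At an adjusted p under 0.01, the threshold of the study, edgeR called 0 of the 6 paralogs tested, where 19.5% of all genes tested were called. With the replicate number as a block in the model it called 1, *Serpina3f* (adjusted p 1.21e-05, edgeR), where 4983 of all 18587 genes were called. At an unadjusted p under 0.05 the count was 3, *Serpina3f*, *Serpina3h* and *Serpina3n*, against 39.9% of all genes. At an adjusted p under 0.05 it was 2, *Serpina3f* and *Serpina3n*, against 30.1% of all genes. DESeq2 gave an adjusted p for 5 of the paralogs and called 0 of them at 0.01, where it called 3711 of 17926 genes. It called 1 of the paralogs at 0.05 and 2 at an unadjusted p under 0.05, for which the shares of all genes are not given. The edgeR counts at 0.05 are close to the background shares for a group of 6.

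*Serpina3n* was lower with IL-1β plus butyrate in each library than in any with IL-1β, 7.11, 11.6, 9.02 and 9.44 CPM against 16.4, 15.6, 12.5 and 13.5 CPM. Of all genes tested, 14.5% were lower without overlap in this comparison. The log2 difference of *Serpina3n* was -0.64 (95% interval -1.05 to -0.23, adjusted p 0.0202, edgeR), a ratio of means of 0.641. DESeq2 gave *Serpina3n* an adjusted p of 0.204 in this comparison. *Serpina3f* had 17.6, 25.0, 14.8 and 18.9 CPM with IL-1β plus butyrate against 14.2, 15.7, 11.3 and 14.8 CPM with IL-1β, and the groups overlapped. In each pair of libraries with the same replicate number, *Serpina3f* was higher with IL-1β plus butyrate. The labels do not say that such libraries share an experiment, and the share of all genes with this order is not given. The log2 difference of *Serpina3f* was 0.45 (95% interval 0.16 to 0.73, adjusted p 0.0185, edgeR). Without IL-1β plus butyrate replicate 2, the library with the highest levels of *Serpina3e-ps*, *Serpina3f*, *Serpina3g*, *Serpina3i* and *Serpina3n* in its condition, the difference of *Serpina3f* was 0.27 (adjusted p 0.0844, edgeR) and that of *Serpina3n* -0.78 (adjusted p 0.0092, edgeR), which passes the threshold.

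*Serpina3e-ps* and *Serpina3i* were at almost the same level with and without butyrate. *Serpina3i* had 18.2, 19.4, 18.7 and 17.1 CPM with IL-1β plus butyrate and 21.2, 18.1, 17.7 and 18.7 CPM with IL-1β, a log2 difference of -0.04 with a 95% interval of -0.23 to 0.14 (adjusted p 0.767, edgeR). *Serpina3e-ps* had 12.3, 16.3, 11.8 and 12.0 CPM against 13.6, 12.9, 12.5 and 13.5 CPM, a ratio of means of 0.9996 with a fitted 95% interval of 0.865 to 1.16 (adjusted p 0.998, edgeR). For *Serpina3g* the interval of the log2 difference, -0.49 to 1.08, was wide (adjusted p 0.603, edgeR). *Serpina3h* went from 0.831 to 0.386 CPM on 71 and 35 reads in all, with a log2 difference of -1.09 (95% interval -1.96 to -0.23, adjusted p 0.0517, edgeR) and overlapping libraries.

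**Figure D3:**
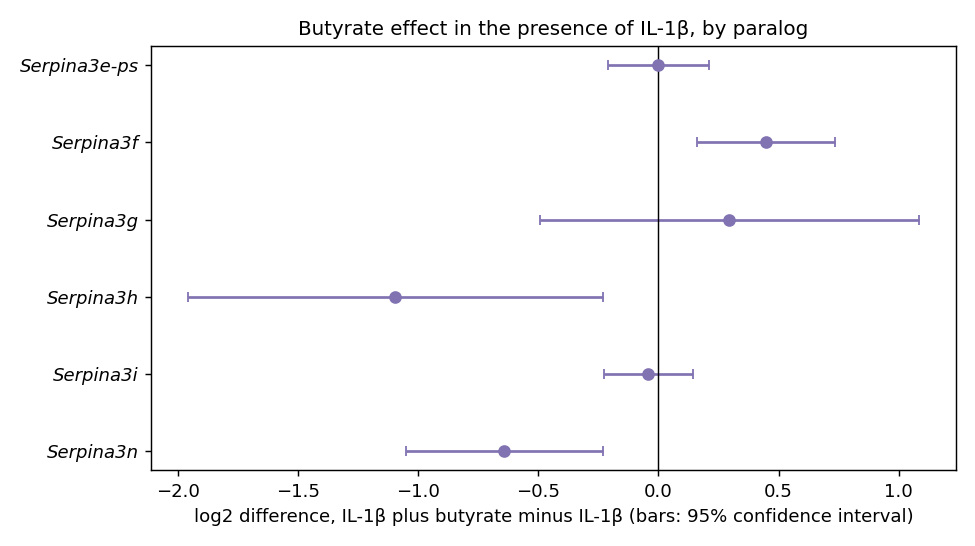
Log2 difference between IL-1β plus butyrate and IL-1β for each of the 6 paralogs tested (horizontal axis; points are fitted values and bars 95% confidence intervals from edgeR's fit to 16 libraries). *Serpina3e-ps* and *Serpina3i* sit at 0 with short intervals, *Serpina3f* sits above 0 at 0.45, and *Serpina3n* and *Serpina3h* sit below 0 at -0.64 and -1.09.

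The paralogs can also be set against each other within a library, where no scaling between libraries enters. The pairs in this paragraph were added after the data were seen, so their p are a description, and the pairs set down as the main ones follow. Among the members with at least 10 reads in each of the 8 libraries, *Serpina3e-ps*, *Serpina3f*, *Serpina3i* and *Serpina3n*, the reads of *Serpina3f* per read of *Serpina3n* were 0.864, 1.00, 0.901 and 1.10 with IL-1β, and 2.48, 2.15, 1.64 and 2.00 with IL-1β plus butyrate. The groups did not overlap, and the ratio of *Serpina3f* to *Serpina3n* was 2.12-fold higher with butyrate (two-sided exact permutation test, p = 0.0286, the smallest that 4 against 4 libraries allow; adjusted over the 6 pairs, 0.0429). *Serpina3e-ps* per *Serpina3n* was 1.56-fold higher and *Serpina3e-ps* per *Serpina3f* 0.734-fold (exact permutation p = 0.0286 and adjusted 0.0429 for each).

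Against *Serpina3i*, the member with the most reads, 3 pairs had been set down as the main ones. *Serpina3n* had 0.775, 0.863, 0.708 and 0.721 reads per read of *Serpina3i* with IL-1β and 0.391, 0.598, 0.484 and 0.552 with IL-1β plus butyrate, 0.654-fold (exact permutation p = 0.0286, adjusted over these 3 pairs 0.0857, over all 6 pairs 0.0429). *Serpina3f* per *Serpina3i* changed by 1.39-fold with overlapping libraries (exact permutation p = 0.0571, adjusted over these 3 pairs 0.0857). *Serpina3e-ps* per *Serpina3i* gave 1.02-fold (exact permutation p = 0.886). For IL-1β plus butyrate against butyrate, 0 members had 10 reads in every library, and no ratio was tested. As a share of all reads of the members, *Serpina3n* went from 23.3% ± 1.55 to 15.2% ± 1.70 and *Serpina3f* from 22.5% ± 2.12 to 31.0% ± 3.14, while *Serpina3i* (30.5% and 30.4%) and *Serpina3e-ps* (21.2% and 21.4%) kept theirs.

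**Figure D4:**
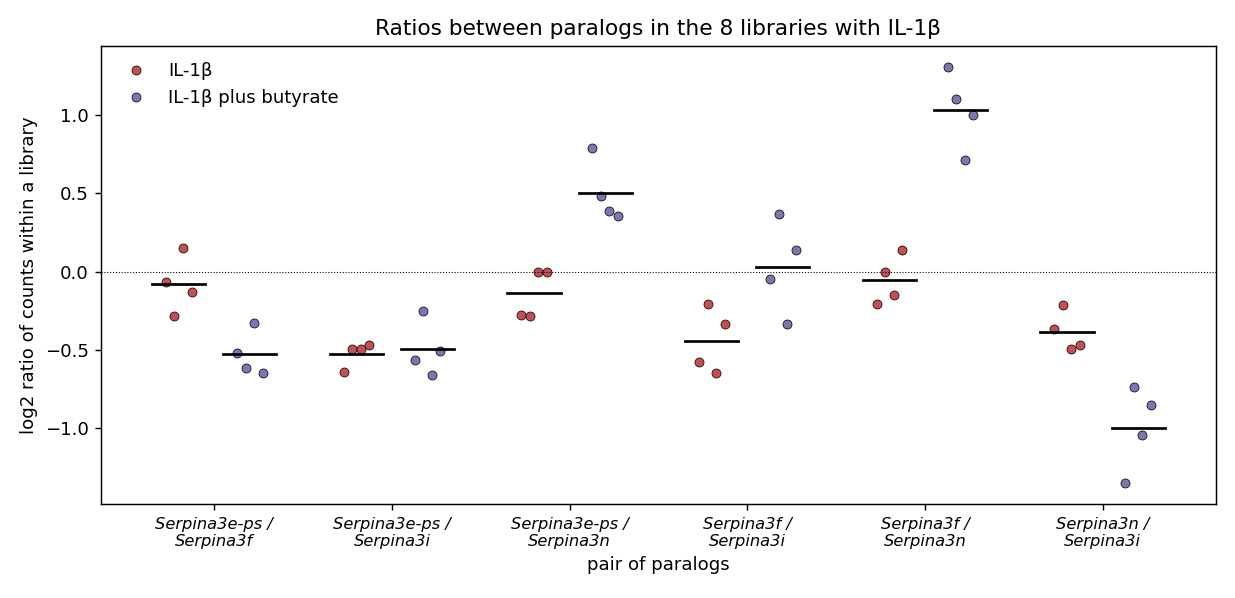
Log2 ratio of the reads of 2 paralogs within a library (vertical axis) for the 6 pairs of the 4 paralogs with the most reads, in IL-1β and in IL-1β plus butyrate libraries; points are libraries and lines the means of 4. The points of the 2 conditions stand apart in the 3 pairs with *Serpina3n* and in *Serpina3e-ps* to *Serpina3f*, and they overlap in *Serpina3e-ps* to *Serpina3i* and in *Serpina3f* to *Serpina3i*.

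Butyrate alone left *Serpina3e-ps*, *Serpina3g* and *Serpina3h* at 0 reads in each of its 4 libraries, and *Serpina3f* and *Serpina3i* at or under 3 reads. These genes thus showed no rise of the size seen with IL-1β, while a fall or a small rise was not detectable at this depth. *Serpina3n* had 27, 6, 4 and 7 reads with butyrate against 3, 5, 4 and 10 in control islets, and the groups overlapped. Its log2 difference was 1.07 (95% interval -0.35 to 2.48, adjusted p 0.263, edgeR, in a comparison where 19.9% of all genes tested were called), and without butyrate replicate 1 it was 0.09 (adjusted p 0.923, edgeR). The same library held the only reads of *Serpina3f* (2) and of *Serpina3i* (3) among the butyrate libraries. The butyrate effect on *Serpina3n* differed with and without IL-1β by -1.71 on the log2 scale (95% interval -3.18 to -0.24, unadjusted p 0.0258, adjusted p 0.576, edgeR), in a comparison where 0.0968% of all genes tested were called, and without butyrate replicate 1 by -0.73 (adjusted p 0.966, edgeR).

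Across the 16 libraries the mean of the standardized log2 CPM of the 6 tested members went most closely with *Unc93b1* (r = 0.995), which carries Toll-like receptors to endosomes, *Lgals3bp* (0.995), a secreted galectin-binding glycoprotein, *Rgs4* (0.994), a brake on G protein signalling, *Ifngr2* (0.994), a chain of the interferon-γ receptor, and *Elf3* (0.994), an epithelial transcription factor. With r above 0.95 there were 233 genes, and the 16 points fall into libraries with and without IL-1β, so that these values mostly restate that split. *Rgs4* went from 43.0 CPM in control islets and 42.9 CPM with butyrate to 551 CPM with IL-1β and 628 CPM with both. The gene most like a given member was *Rgs4* for *Serpina3f* (0.998) and *Serpina3i* (0.997), *Ptprg* for *Serpina3e-ps* (0.997), the chemokine *Cxcl1* for *Serpina3n* (0.990), the complement component *C3* for *Serpina3g* (0.977) and *Cd52* for *Serpina3h* (0.968).

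Other genes of the pathways around these serpins are given by their calls in the 8 butyrate libraries, IL-1β plus butyrate against butyrate (edgeR, adjusted p under 0.01, 9.92% of all genes called higher, 4.86% lower, median log2 difference of all genes -0.01). Of 22 other clade A serpins 5 were tested, of which 3 were called higher and 0 lower (median 1.79). *Serpina10*, an inhibitor of coagulation factor X, rose from 74.0 to 256 CPM, *Serpina7*, the thyroxine-binding globulin, rose from 10.7 to 83.6 CPM, and *Serpina3c* was at 0.591 and 0.698 CPM. Of 39 serpins of other clades 15 were tested, 5 higher and 0 lower (median 0.18). *Serping1*, the C1 inhibitor of complement, rose from 27.7 to 190 CPM, *Serpini1* (neuroserpin) rose from 64.3 to 77.3 CPM, and *Serpinb6a* was at 44.6 and 50.5 CPM.

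Acute phase proteins had 18 of 25 genes tested, 14 called higher and 0 lower, with a median log2 difference of 2.77. *Lcn2*, which binds bacterial siderophores, rose from 3.24 to 2430 CPM and *C3* from 11.9 to 363 CPM. Among possible targets of the inhibitors, the granule proteases of leukocytes (17 genes) had 1 gene with enough reads to test, *Gzmm*, at 1.72 CPM with butyrate and 1.39 CPM with IL-1β plus butyrate, and it was not called. The papain-like lysosomal cathepsins had 10 of 10 tested, 8 higher and 0 lower (median 0.61). *Ctsb* rose from 265 to 388 CPM, *Ctsl* from 191 to 303 CPM and *Ctso* from 59.3 to 70.4 CPM.

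Of 26 genes of the IL-1 receptor and NF-κB pathway 12 were called higher and 2 lower (median 0.25), the receptor *Il1r1* being at 608 and 641 CPM and the kinase *Irak1* falling from 208 to 180 CPM. Of 17 tested genes of the IL-6 family receptors and the STAT3 pathway 9 were called higher and 2 lower (median 0.28), with *Stat3* rising from 172 to 327 CPM. With butyrate added to IL-1β, where 8.41% of all genes were called higher and 11.1% lower, 7 acute phase genes were called higher and 1 lower, and 1 of the clade A serpins each way.

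Markers of other cells moved with IL-1β as well. Of 11 macrophage markers 10 were called higher and 1, *C1qa*, lower in both IL-1β contrasts (edgeR, adjusted p under 0.01, where 6.59% of all genes were called lower with IL-1β against control). Their summed level, most of it *C1qa* in the libraries without IL-1β, ran from 133 to 146 CPM in control islets, 197 to 252 CPM with IL-1β, 88.9 to 108 CPM with butyrate and 107 to 150 CPM with IL-1β plus butyrate, and none of the 11 stood at 3 reads or fewer throughout. Between IL-1β plus butyrate and IL-1β, 5 of the 11 were called lower, in the comparison where *Serpina3n* was lower. Of 7 duct markers 2 were called higher with IL-1β plus butyrate against butyrate, and their sum rose from between 357 and 400 to between 553 and 847 CPM. Of 10 beta cell markers 9 were called lower in that contrast, with sums of 224000 to 263000 CPM falling to 139000 to 171000 CPM. Hepatocyte markers, of a cell type known for *Serpina3* genes, had 3 of 8 genes tested, and their sum was 44.4 to 58.0 CPM with butyrate and 28.2 to 36.8 CPM with IL-1β plus butyrate. Most of this sum was *Tat*, at a mean of 48.3 CPM with butyrate and 29 CPM with IL-1β plus butyrate, while *Apoa2* rose from 1.14 to 2.42 CPM. In the same contrast the calls were 3 higher and 2 lower of 6 alpha cell markers, 0 of 3 delta cell markers, 1 higher of 8 tested endothelial markers, 1 lower of 10 fibroblast and stellate markers, 1 lower of 5 tested acinar markers, 0 of 3 tested T and NK cell markers, 0 of 2 tested neutrophil markers, and 1 higher and 1 lower of the 3 hepatocyte markers. The part of these cell types in the levels of the paralogs was not tested.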

How the data were processed

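Libraries were made from islet RNA with a NEBNext Ultra II kit, which does not mark strand, and sequenced single-end on an Illumina HiSeq instrument. Per the labels, the authors mapped reads with STAR 2.5.3a to mm10 (GRCm38), and the deposited values are counts of reads per gene, whole numbers without normalization. The annotation release, strand setting and handling of reads with several places are not given in the sources used here. The table held 52636 genes, 10560 of them with no count, and 52489 identifiers were found in GENCODE M21, the source of symbols and positions. Promoters are from RefSeq (GRCm38.p6), cut to the 250 bases before the start, and 4 of the 7 members had one.

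In R 4.3.3, edgeR 4.0.16 removed low counts (filterByExpr, 18587 genes left, 6 of 7 members), scaled by TMM and fitted a robust quasi-likelihood model of the 4 conditions to all 16 libraries. Adjusted p are Benjamini-Hochberg values over all genes tested, with a threshold of 0.01. A condition with 0 reads was set at 3 reads per library, the highest such CPM giving the lower bound of a fold. For conditions with 1 to 3 reads in all, pooled reads were compared with an exact (Clopper-Pearson) 95% interval. Ratios between members added 0.5 to both counts and were tested by exact permutation (Python 3.11.15, scipy 1.17.1). Within a condition, the chi-square per gene between replicates was 1.72 to 13.5, where counting error alone gives about 1. Steps were tested on simulated data.

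The members, gene lists, motifs and comparisons were chosen with earlier results of these data known. Genes named beside the members are the 5 most like their mean profile and the one most like each member (Pearson r of log2 CPM, prior count 2), the other *Serpina3* genes, and up to 3 genes of a list with the highest mean CPM. The lists were other clade A serpins, serpins of other clades, leukocyte granule proteases, cathepsins, IL-1 receptor and NF-κB pathway, IL-6 family and STAT3 pathway, acute phase proteins and markers of 11 cell types. Alternatives were DESeq2 1.42.0, upper-quartile or library size scaling, no filter, a replicate block, the compared conditions alone, a threshold of 0.05 and leaving out each library. The ratios of all 6 pairs and the levels per length not shared with another gene were added after seeing the data.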

Additional observations from a re-analysis of the deposited data

Results flagged for a closer look

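In 14 groups of 4 libraries with reads of a member, 2 held a library far from the other 3, where chance flags about 1 in 20. *Serpina3e-ps* was at 16.3 CPM in replicate 2 of IL-1β plus butyrate, against 11.8 to 12.3 CPM in the other replicates of that condition. *Serpina3n* was at 1.36 CPM (27 reads) in replicate 1 of butyrate, against 0.209 to 0.301 CPM in its other replicates.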

How the results depend on the processing

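For IL-1β plus butyrate against butyrate, the 23 alternatives called 5 to 6 members (5 where the fit held only those 2 conditions, since *Serpina3h* then failed the filter). For IL-1β plus butyrate against IL-1β, the main count of 0 called members became 2 without a filter, 1 with the replicate block, 2 at an adjusted p under 0.05 and 1 in a fit to those 2 conditions, and it was 0 to 1 with each library left out. The called genes were *Serpina3f* without a filter (adjusted p 8.29e-06), with the replicate block (1.21e-05), at 0.05 and without IL-1β plus butyrate replicate 3 (0.00272), and *Serpina3n* without a filter (0.000993), in those 2 conditions alone (0.00165), at 0.05, without butyrate replicate 1 (0.000203) and without IL-1β plus butyrate replicate 2 (0.0092); in DESeq2 the adjusted p of *Serpina3n* was 0.204. The cause was not tested. Among all genes, 3914 of 42076 were called in this comparison without a filter and 4983 of 18587 with the replicate block. At 0.05 it was 5595 of 18587, and in those 2 conditions alone 2988 of 17191. With a library left out, 3114 to 3698 genes were called. Over all alternatives the log2 difference of *Serpina3f* was 0.27 to 0.53 and that of *Serpina3n* -0.78 to -0.54. The log2 ratio of *Serpina3n* to *Serpina3i* was -0.61 with the replicate block too, where 0.125 is the smallest p that 4 pairs allow. Same-numbered libraries correlated by 0.0535 to 0.397 (17 of 24 pairs above 0.1), and 13 of 16 libraries correlated best with their own number, a hint from the data of shared experiments. The sample numbers in the column headers run replicate by replicate, but neither they nor the labels name an experiment. Since 0.1, a limit set by choice, was not passed by every pair, the fit without the block was kept as the main one. The main count of 0 called members for IL-1β plus butyrate against IL-1β rests on this choice. Scaling by library size alone moved the share of higher genes among those called for IL-1β plus butyrate against butyrate from 67.1% to 87.5%, and upper-quartile scaling to 53.2%. Depth limits *Serpina3g* and *Serpina3h*, and levels under 3 reads in islets without IL-1β.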
